A study of Mus musculus with 24 samples.

Results

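The guanylate-binding proteins (GBPs) and the immunity-related GTPases (IRGs) are interferon-induced GTPases of cell-autonomous defence. They assemble on the membranes of vacuoles that hold intracellular microbes and help to break them open, and the GBPs also assist inflammasomes. Their genes lie in clusters and are low in resting macrophages and neutrophils and strongly induced by interferon-gamma, and to a lesser degree by type I interferon. The 10 genes described were Gbp2, Gbp3, Gbp4, Gbp5, Gbp6, Gbp7, Irgm1, Irgm2, Igtp, and Iigp1, chosen by name out of 32451 genes or transcripts on the array. All 10 were found through the RefSeq accession of their probes, with 13 probes in all, since Gbp6, Irgm1, and Iigp1 had 2 probes each. On the brightest probe of each gene, the one used unless another is named, all 10 were well above background on every one of the 22 arrays analysed.

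RNA was measured on one-colour Agilent arrays in CD11b+ cells, the myeloid cells that carry integrin alpha M, taken from spleen or bone marrow of male mice on a Balb/C background, stated to be 10 weeks old. The mice were wild type (WT), lacked histidine decarboxylase, the enzyme that makes histamine (HDC-KO), or lacked STAT6, a transcription factor of interleukin-4 signalling (STAT6-KO). Cells came from control mice or from mice at 1, 2, or 4 weeks after myocardial infarction (MI). Each of the 24 conditions was 1 array of RNA from cells pooled from 5 mice, so no condition had a replicate. Incomplete and not used were the control array of HDC-KO spleen and the MI 1 week array of STAT6-KO bone marrow. By their shared scan times, the arrays of a genotype and tissue lay together on a slide, placed in the order of time. Genotype within a tissue and tissue within a genotype thus cannot be told apart from slide, nor time after MI from position on the slide. In bulk RNA, fewer cells of a type and less RNA per cell cannot be told apart either.

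Levels below are log2 signals relative to the 75th percentile of their array, a scale on which 1 unit is a 2-fold difference. That percentile lay between 928 and 2461 in spleen and between 963 and 1780 in bone marrow before the log. Hdc was 1.67 to 2.78 in HDC-KO against 4.32 to 5.51 in WT, and Stat6 on its brightest probe was 1.76 to 2.44 in STAT6-KO against 2.38 to 3.70 in WT. Both STAT6-KO arrays at MI 2 weeks reached the WT range on a single probe of Stat6. Spleen had 2.44 on the brightest (lowest WT array 2.38), and bone marrow -0.27 on another (lowest WT array -0.43). On the brightest probe the array of STAT6-KO spleen at MI 4 weeks was 2.12, below every WT array. On the other probes it was 0.73 and 0.20, within the range of WT. Its label is thus in doubt, and the tests of STAT6-KO at MI 4 weeks are given without it too. Without it 9 of the 10 genes were called in WT at MI 1 week and 9 between the tissues, as with it. Every array was labelled male, but on 1 of its 2 probes Xist, an RNA made from the inactive X, stood well above background on all 7 HDC-KO arrays and on both STAT6-KO control arrays, and on 0 of the 8 WT arrays. Its level there ran from -3.18 to -0.74. The other probe of Xist was well above background on 7 of 7 HDC-KO, 6 of 7 STAT6-KO, and 5 of 8 WT arrays, with medians of -2.58, -5.44, and -5.82. The Y-linked genes Ddx3y and Eif2s3y were well above background on every array. Their medians were -1.73 and 1.42 in HDC-KO, against -0.44 and 2.22 in WT. The part of Xist and of these genes in any result below was not tested. Itgam (the gene of CD11b), Itgb2, Cd33, and 6 neutrophil genes were well above background on every array. So were all 5 B-cell genes and all 9 T- and NK-cell genes looked up.

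The promoters are shown because the same short elements recur in them. RefSeq promoter windows (GRCm38.p6, 250 bases before to 50 after the annotated start) were read for 7 of the 10 genes. Gbp4 and Gbp6 had no window, and Iigp1 was left out of the search. The counts below do not cover these genes. The core of the interferon-stimulated response element (GAAA, any 2 bases, GAAA) was looked for on both strands, as was the gamma-activated site (TTCNNNGAA), which reads alike on both. The matches of the first never overlapped those of the second. The first was found in 7 of the 7 genes, in 7 of their 8 windows, against 3.44% of the 32851 windows of the reference. The second was found in 4 of the 7 genes, against 8.3% of all windows. The 4 genes with both were Gbp5, Gbp7, Irgm2, and Igtp, and 0.454% of all windows held both. A match is a string of letters and not a measured binding site. Below, each stretch runs 5′ to 3′ on the strand of its gene and lies wholly before the annotated start, with the matches in capitals.
Gbp2: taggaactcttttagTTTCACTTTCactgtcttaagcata
Gbp3: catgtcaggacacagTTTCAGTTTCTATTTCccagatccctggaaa
Gbp5: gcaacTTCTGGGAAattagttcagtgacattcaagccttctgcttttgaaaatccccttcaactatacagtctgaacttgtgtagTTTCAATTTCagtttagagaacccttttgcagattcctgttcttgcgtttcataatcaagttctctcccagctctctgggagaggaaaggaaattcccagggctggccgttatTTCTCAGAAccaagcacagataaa
Gbp7: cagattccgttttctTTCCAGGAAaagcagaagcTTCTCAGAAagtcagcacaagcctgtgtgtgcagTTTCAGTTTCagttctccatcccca
Irgm1: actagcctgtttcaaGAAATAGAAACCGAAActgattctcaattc
Irgm2: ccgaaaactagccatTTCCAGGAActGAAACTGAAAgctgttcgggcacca
Igtp: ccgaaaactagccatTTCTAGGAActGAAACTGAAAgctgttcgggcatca
The stretches of Gbp2 (chr3:142620589-142620628), Gbp3 (chr3:142559984-142560029), Gbp5 (chr3:142496684-142496905), and Gbp7 (chr3:142530215-142530307) lie on the plus strand within 1 cluster of GBP genes. Those of Irgm2 (chr11:58214887-58214937) and Igtp (chr11:58199496-58199546) lie on the plus strand and that of Irgm1 (chr11:48871421-48871465) on the minus strand. Gbp3 and Irgm1 each had 2 copies of the first element, which overlapped. Irgm2 and Igtp, which are neighbours, shared 49 of 51 bases, with both elements side by side in each.

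The values of single arrays are given first, beginning with the GBPs of the chromosome 3 cluster. Gbp2, a GBP that coats microbial vacuoles, was 1.23 in WT spleen control and 4.09, 3.75, and 3.91 at MI 1, 2, and 4 weeks. In HDC-KO spleen it was 3.07, 1.59, and 1.25 at MI 1, 2, and 4 weeks, and in STAT6-KO spleen it was 1.55 in control and then 1.77, 1.76, and 2.78. In WT bone marrow it was 1.07 in control and then 4.26, 3.39, and 3.21. The 3 WT arrays after MI stood above all other arrays of their tissue, and WT control was the lowest of the 11 spleen arrays. In HDC-KO bone marrow Gbp2 was 1.93 in control and then 1.67, 1.15, and 1.55, and in STAT6-KO bone marrow it was 0.09 in control, 0.93 at MI 2 weeks, and 2.39 at MI 4 weeks. The HDC-KO arrays after MI were thus all below their own control in bone marrow, whereas the STAT6-KO array at 4 weeks was well above its own.

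Gbp5, which promotes assembly of the NLRP3 inflammasome, was -0.83 in WT spleen control and 1.52, 1.11, and 1.49 at MI 1, 2, and 4 weeks. In HDC-KO spleen it was -0.57, -0.99, and -0.64 after MI, and in STAT6-KO spleen -1.39 in control and then -1.65, -1.41, and 0.30. The 3 WT arrays after MI were the highest of spleen, and STAT6-KO at 4 weeks came next. In WT bone marrow Gbp5 was -2.57 in control and then -0.11, -0.63, and -1.37. It was -1.90, -3.24, -2.21, and -3.22 in HDC-KO bone marrow and -2.06, -2.21, and -2.07 in STAT6-KO bone marrow, in the order of time. Here, too, WT after MI overlapped no other array, and STAT6-KO showed no higher value at 4 weeks than in control.

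Gbp3 and Gbp7 belong to the same cluster, and Gbp7 is known for work on the phagosomal oxidase. Gbp3 was 1.95 in WT spleen control and 4.19, 3.70, and 3.78 after MI, while the other genotypes lay between 1.82 and 2.95. In bone marrow the WT values were 0.30 in control and 2.94, 2.13, and 1.66 after MI, against -0.18 to 1.16 in the other genotypes. Gbp7 was 0.23 in WT spleen control and 2.47, 1.80, and 2.19 after MI, against -0.10 to 1.31 in the other genotypes. In bone marrow it was 0.01 in WT control and then 2.78, 2.30, and 1.66, against -0.61 to 1.29 elsewhere. For both genes the WT arrays after MI lay above all others in both tissues.

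Gbp4 lies in a second GBP cluster and had the widest span of the 10, 5.89 units from -3.26 in STAT6-KO bone marrow control to 2.63 in WT spleen MI 1 week. It was 0.66 in WT spleen control and 2.63, 2.57, and 2.40 after MI, and at most 1.51 in the other genotypes. In WT bone marrow it was -2.10 in control and then 1.40, 0.71, and 0.03. In HDC-KO bone marrow it was -0.84 in control and then -2.64, -2.04, and -1.98. These went opposite ways, with WT above its control and HDC-KO below its own at all 3 times. STAT6-KO bone marrow had -3.26 in control, -2.59 at 2 weeks, and -1.64 at 4 weeks.

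Irgm1, Irgm2, and Igtp (also called Irgm3) are the regulatory IRGs, which hold the effector IRGs inactive on the cell's own membranes. Igtp was 2.50 in WT spleen control and 4.71, 4.39, and 4.40 after MI, against 2.86 to 3.03 in HDC-KO spleen after MI. In STAT6-KO spleen it was 2.07 in control and then 2.36, 2.48, and 3.68. In WT bone marrow Igtp was 2.21 in control and then 4.99, 4.03, and 3.45. All WT arrays after MI lay above the others, but in bone marrow the margin between WT at 4 weeks and STAT6-KO at 4 weeks, at 3.35, was small. HDC-KO bone marrow held 3.15 in control and 2.64, 2.51, and 2.71 after MI, and STAT6-KO bone marrow 1.42 in control and 1.78 at 2 weeks.

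Irgm1 was 1.83 in WT spleen control and 3.94, 3.69, and 3.16 after MI, and 1.35 in WT bone marrow control and then 3.75, 2.97, and 2.21. In STAT6-KO bone marrow it was 0.83 in control, 1.19 at 2 weeks, and 2.88 at 4 weeks, so that the last overlapped the WT arrays after MI. Irgm2 was 2.28 in WT spleen control and then 3.89, 3.61, and 3.46, and 1.58 in WT bone marrow control and then 3.67, 2.97, and 2.27. In bone marrow 4 of the 8 other arrays lay above the lowest WT array after MI for Irgm2. Both genes were separated from the rest in spleen and not in bone marrow.

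Iigp1 (also called Irga6), an effector IRG that loads onto parasite vacuoles, was 0.06 in WT spleen control and 2.25, 1.82, and 1.55 after MI. In WT bone marrow it was -0.28 in control and then 0.95, 0.78, and 0.71. HDC-KO was 1.04, 0.45, and 0.48 in spleen after MI, and -0.10 to 0.05 in bone marrow. In STAT6-KO it was 0.89, 1.03, 1.32, and 0.33 in spleen and 0.78, 1.01, and 0.85 in bone marrow, in the order of time. WT after MI stood above the rest in spleen, whereas in bone marrow all 3 STAT6-KO arrays reached its range.

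Gbp6, of the same cluster as Gbp4, did not follow this pattern on its brightest probe. It was 2.95, 2.92, 2.64, and 3.71 in WT spleen and 0.48, 0.11, 0.74, and 2.21 in WT bone marrow, each in the order control and MI 1, 2, and 4 weeks. The highest array was STAT6-KO spleen MI 4 weeks, of doubtful label, at 4.96, followed by STAT6-KO spleen control at 4.05, and 6 of the 8 other spleen arrays lay above the lowest WT array after MI.

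**Figure D1:**
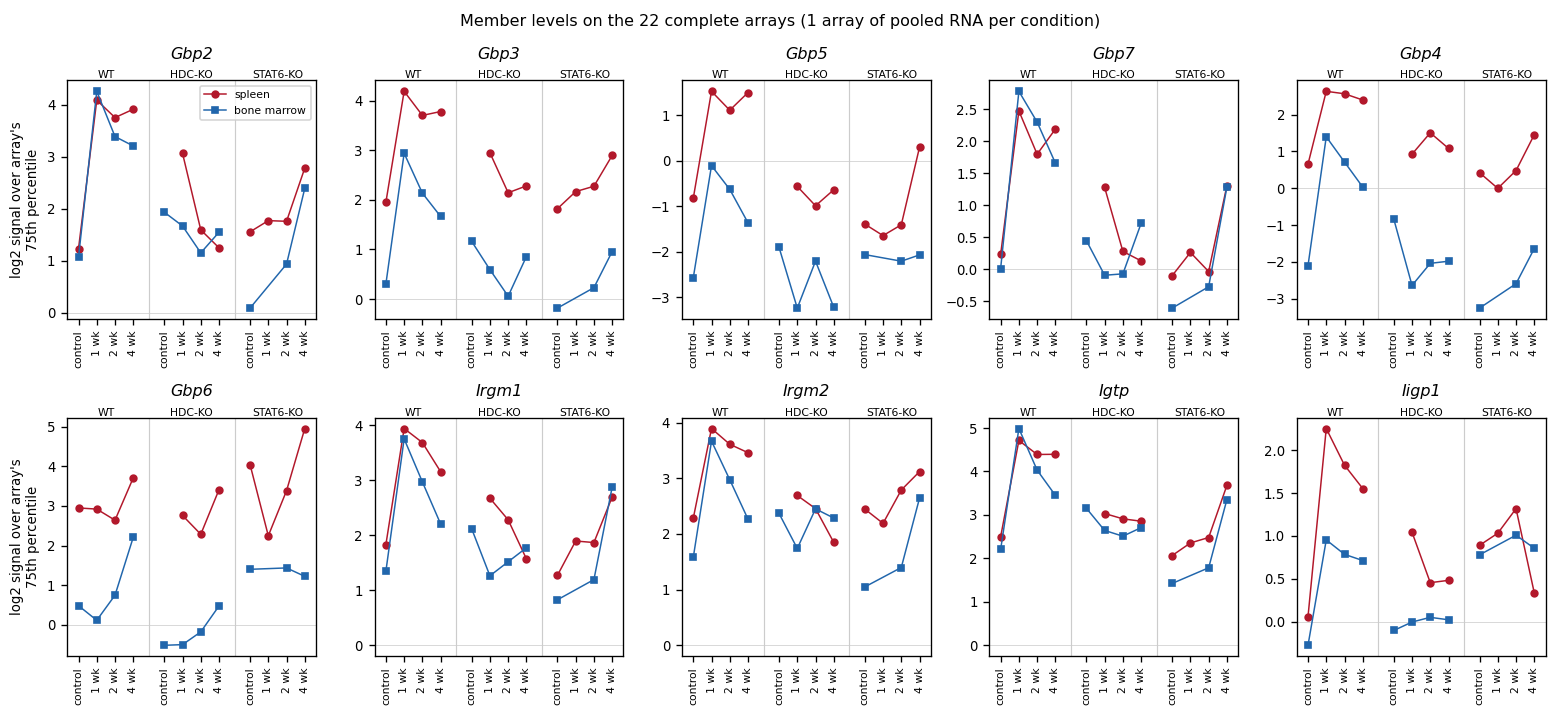
Level of each of the 10 genes (log2 signal over the array's 75th percentile, vertical axis) on the 22 complete arrays, by genotype and time (horizontal axis); circles are spleen, squares bone marrow, and each point is 1 array of pooled RNA with no error bar. Lines join arrays of 1 slide. Except for Gbp6, WT is higher at MI 1 week than in control in both tissues, while in HDC-KO bone marrow 8 of the 10 genes are lower.

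Over the 10 genes on their brightest probes, the 3 WT arrays after MI lay above all 8 other arrays in spleen for 9, all but Gbp6. This held for 2.93% of 26390 genes compared in spleen. In bone marrow it held for 6, namely Gbp2, Gbp3, Gbp4, Gbp5, Gbp7, and Igtp, against 3.03% of 27074 genes. Centred on its own mean over the arrays and averaged over the 10 genes, the level was highest in WT spleen at MI 1 week (1.85 ± 0.54, SD over the 10 genes), followed by WT spleen at 4 weeks (1.59 ± 0.62) and 2 weeks (1.49 ± 0.59). WT bone marrow at 1 week (1.06 ± 1.15) and STAT6-KO spleen at 4 weeks (0.94 ± 0.91) came next. The lowest were HDC-KO bone marrow at 1 week (-1.27 ± 0.81) and STAT6-KO bone marrow control (-1.47 ± 0.90). Neighbours in this order differed by less than the larger of their SDs over the genes, which are not replicates of a condition.

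The change after MI was tested within each genotype against its control with limma, over all 22 arrays with slide as a block. The error is thus the difference between the tissues and not the spread between mice, and p-values may be too small. At MI 1 week STAT6-KO had a complete array in spleen alone, so that its change at that time does not cover bone marrow. In WT at MI 1 week, 9 of the 10 genes rose at an adjusted p under 0.05, by 1.71 to 3.03 on the log2 scale, and 0 fell. Of all 27736 genes tested, 1.82% were called in either direction and 0.808% as higher. The median change was 2.42 over the 10 genes and 0.02 over all genes. Gbp2 rose most, by 3.03 ± 0.39 (SE, adjusted p = 0.00844), an 8.14-fold change, with 2.86 in spleen and 3.19 in bone marrow. Gbp4 rose by 2.74 ± 0.34 (adjusted p = 0.008) and Igtp by 2.50 ± 0.27 (adjusted p = 0.00482). The others called were Gbp7 (2.51), Gbp3 (2.43), Gbp5 (2.41), Irgm1 (2.26), Irgm2 (1.85), and Iigp1 (1.71), with adjusted p from 0.00495 to 0.0397. Each of the 9 was over 2-fold above control in spleen and in bone marrow alike. The calls rested on few arrays. With any 1 of the 4 arrays left out, some or all calls on the 10 genes were lost, and fewer of all genes were called too. The median change of the 10 stayed between 2.13 and 2.67.

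**Figure D2:**
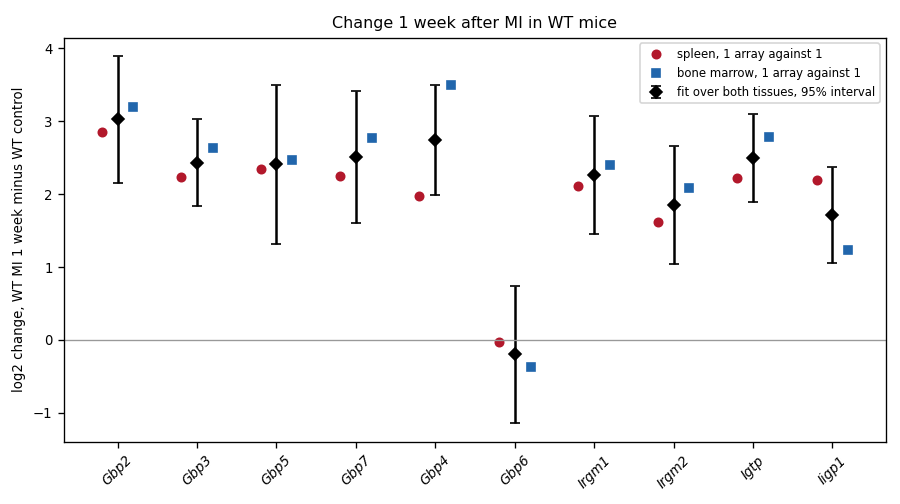
Change in WT from control to MI 1 week (log2, vertical axis) for each of the 10 genes (horizontal axis). Circles and squares are spleen and bone marrow, 1 array against 1, and diamonds the fit over both tissues with its 95% interval. The intervals of 9 genes lie above 0 and that of Gbp6, at -0.20, spans it.

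At MI 2 weeks in WT, 3 genes were called, all higher: Gbp4 (2.36 ± 0.34, adjusted p = 0.0335), Igtp (1.86 ± 0.27, adjusted p = 0.0341), and Gbp3 (1.79 ± 0.27, adjusted p = 0.038), against 0.187% of all genes. Without any 1 of the 4 arrays compared, 0 were called. Gbp2 had 2.42 ± 0.39 at an adjusted p of 0.0543. At MI 4 weeks 0 of the 10 passed limma's test, against 0.0649% of all genes, though all 10 changes were positive, from 0.93 to 2.41, with an unadjusted p under 0.05, against 9.75% of all genes at that p. The median over the 10 was 2.42, 1.82, and 1.58 at 1, 2, and 4 weeks, and the difference between 1 and 4 weeks was not tested.

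In HDC-KO the changes were estimated from the bone marrow control, as the spleen control was incomplete. None of the 10 passed limma's test at any time (0 at MI 1, 2, and 4 weeks, against 0.148%, 0.0541%, and 0.0216% of all genes), with 1, 2, and 1 genes at an unadjusted p under 0.05 (10.9%, 6.31%, and 9.2% of all genes). The medians were -0.30, -0.57, and -0.55. In bone marrow alone, 8 of the 10 were below control at 1 week, with Gbp4 lowest at -1.80.

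In STAT6-KO, 0 genes passed at MI 1 week and 0 at 2 weeks (0.0615% and 0.0108% of all genes), with 1 and 0 at an unadjusted p under 0.05 (5.95% and 3.8% of all genes). At 4 weeks Igtp rose by 1.77 ± 0.27 (adjusted p = 0.0296), 1 of 10 against 0.346% of all genes. With any 1 of the 4 arrays compared left out, this call was lost, and fewer of all genes were called too. Without the spleen array of doubtful label the change of Igtp was 1.95 (adjusted p = 0.126) and the median over the 10 genes was 1.53, against 1.23 with it. Irgm1 had 1.74 ± 0.36 (adjusted p = 0.0992) and Gbp2 1.77 ± 0.39 (adjusted p = 0.121) there. Both tissues had 7 genes over 2-fold above control at this time, whereas the brighter probe of Iigp1 had -0.56 in spleen and 0.08 in bone marrow. The other probe of Iigp1 went from -3.30 to -1.80 in spleen and from -6.66, not well above background, to -3.62 in bone marrow, a change of 2.27 ± 0.47 (adjusted p = 0.0925).

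**Figure D3:**
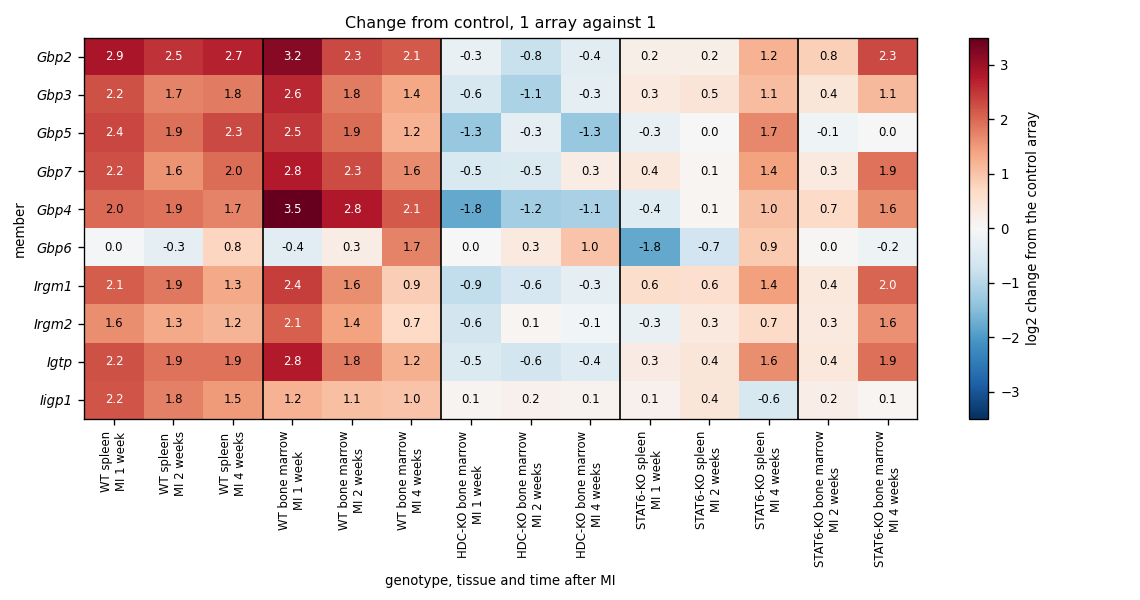
Change from the control array of the same genotype and tissue (log2, colour and number) for each gene (rows) and each array after MI (columns, grouped by genotype and tissue), 1 array against 1. WT columns are positive except for some values of Gbp6, HDC-KO bone marrow columns are mostly negative, and STAT6-KO columns hold values over 1 at 4 weeks and none at 1 or 2 weeks.

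Whether the change differed between genotypes was tested as the difference of changes in the same fit. At MI 1 week the STAT6-KO change rested on the spleen array of that time alone, whereas the WT change came from both tissues. At MI 1 week the change of Gbp4 was larger in WT than in HDC-KO by 4.46 ± 0.55 (SE, adjusted p = 0.045), 1 gene of 10 against 0.0326% of 27614 genes. The difference stayed positive, from 3.91 to 5.00, with 1 of the WT or HDC-KO arrays compared left out, but the call was lost in 5 of those 6 fits (adjusted p from 0.0371 to 0.433). It was also lost without the STAT6-KO array of doubtful label (adjusted p = 0.0739), through the shared estimate of the spread. Igtp and Gbp3 differed by 2.97 ± 0.44 and 2.80 ± 0.44 with adjusted p of 0.0966 each. Of the 10 genes, 9 had an unadjusted p under 0.05 in this test. Against STAT6-KO at 1 week 0 were called (0.0688% of all genes), with a lowest adjusted p of 0.123, although the differences were positive for all 10, up to 2.97, and 10 had an unadjusted p under 0.05. At 2 and 4 weeks 0 were called against either knockout, with background shares of 0.0109% in all but HDC-KO at 4 weeks, where it was 0%. At 2 weeks 9 genes against HDC-KO and 8 against STAT6-KO had an unadjusted p under 0.05, and at 4 weeks 8 and 1. The share of all genes at that unadjusted p was not computed for these differences. The unadjusted counts at all 3 times thus have no background to be set against. Without the array of doubtful label the median difference against STAT6-KO at 4 weeks was 0.36, in place of 0.55, with 0 called.

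Fitted with time point as a term, most of the genes had lower levels in both knockouts than in WT, but none passed the test. HDC-KO spleen had no control array, so its fitted values are not plain averages over time points. The control arrays of the other genotypes enter them through the shared time term. Those of STAT6-KO spleen rest on arrays of all time points. In spleen HDC-KO minus WT had a median of -1.29 over the 10 genes, with 0 called by limma (2.81% of all genes) and 9 at an unadjusted p under 0.05 (22.6%). Gbp5 had the largest fitted difference there, -1.89 ± 0.46 (adjusted p = 0.0713). Its single-array differences at MI 1, 2, and 4 weeks were -2.09, -2.10, and -2.13. With the WT and HDC-KO arrays fitted alone 9 were called, all lower, but calls over all genes rose there too, to 2610 from 745. With the arrays after MI alone 4 were called. STAT6-KO minus WT in spleen had a median of -1.25, with 0 called (1.96%) and 7 at an unadjusted p under 0.05 (22.9%). With the arrays after MI alone 4 were called, all lower, and calls over all genes rose to 965 from 519. Without the array of doubtful label that median was -1.51, and 0 were called. The methods' t-test with a fold change over 2 and no adjustment called 2 genes there and 0 in the 3 other comparisons of genotypes. For this rule, and for HDC-KO spleen with the arrays after MI alone, the count over all genes is not given here. Bone marrow had medians of -1.08 for HDC-KO and -1.05 for STAT6-KO, with 0 called in each (0.443% and 4.62%) and 6 and 3 at an unadjusted p under 0.05 (21.2% and 22.4%), so that the share in STAT6-KO bone marrow was near that of all genes. On its brighter probe Gbp6 was positive in STAT6-KO, at 0.60 ± 0.34 in spleen and 0.28 ± 0.35 in bone marrow, but its other probe had -1.36 ± 0.52 and -1.31 ± 0.87, none of them called. Iigp1 likewise had 0.41 ± 0.23 in STAT6-KO bone marrow on its brighter probe and -2.79 ± 1.09 on the other, neither called. In HDC-KO spleen the other probe of Iigp1 was lower by limma, at -3.17 ± 0.56 (adjusted p = 0.0337 over all probes).

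In the control arrays taken alone, the genotypes were closer or lay the other way. STAT6-KO minus WT had a median of -0.18 in spleen, with 6 of 10 lower, and -0.52 in bone marrow, with 7 lower. HDC-KO control minus WT control in bone marrow had a median of 0.78, and only Gbp6 was lower. At MI 1 week the median was -1.22 for HDC-KO and -2.13 for STAT6-KO in spleen and -2.42 for HDC-KO in bone marrow, with all 10 lower in each. By 4 weeks STAT6-KO was at -0.88 in spleen and -0.54 in bone marrow. These are single arrays without a test.

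Most of these RNAs were higher on the spleen arrays than on the bone marrow arrays. Every slide held a single tissue, so that tissue cannot be told apart from slide. The pairs below share slides within a genotype, and their p-values may be too small. In 10 pairs of arrays of the same genotype and time, 9 of 10 genes were higher in spleen by limma, against 23.3% of 27668 genes higher and 58% called in either direction, so that a call here is common. Gbp4 differed by 2.91 ± 0.15 (SE, adjusted p = 4.03e-07) and Gbp6 by 2.62 ± 0.19 (adjusted p = 2.33e-06), each higher in 10 of 10 pairs. Gbp3 (1.86 ± 0.12) and Gbp5 (1.81 ± 0.22) were also higher in every pair. Irgm2 (0.65), Gbp2 (0.56), Irgm1 (0.52), Iigp1 (0.49), and Igtp (0.40) differed less, in 8 or 9 pairs of 10, and Gbp7 had 0.21 ± 0.18 (adjusted p = 0.364, 95% interval -0.20 to 0.62). With slide as a random block, with no pairing, and with the methods' t-test, 4 genes were called. The median over all genes was -0.16, and that over the 10 was 0.60. Genes of B cells (5 of 5), T and NK cells (7 of 9), and monocytes and macrophages (4 of 4) were higher in spleen too. Neutrophil genes (6 of 6) and Itgam, Itgb2, and Cd33 (3 of 3) were lower. The part of all these genes in the differences was not tested. The difference between tissues was not called as unlike in the genotypes for any gene (0 of 10 for HDC-KO and 0 for STAT6-KO, against 0.99% and 0.347% of all genes), with 1 and 2 at an unadjusted p under 0.05 (14.9% and 13.7%).

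**Figure D4:**
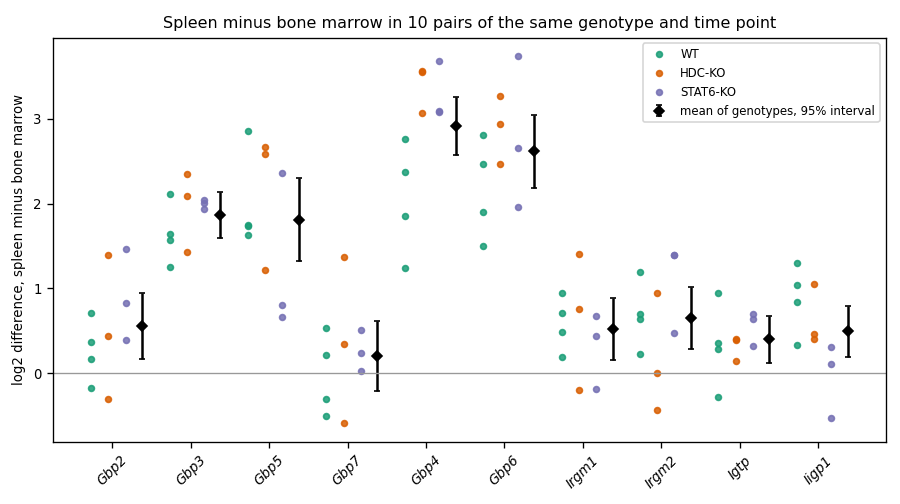
Spleen minus bone marrow (log2, vertical axis) for each gene (horizontal axis) in 10 pairs of arrays of the same genotype and time; coloured points are pairs by genotype, and the diamond is the mean of the genotype means with its 95% interval. Gbp4, Gbp6, Gbp3, and Gbp5 lie above 1 in the mean and above 0 in every pair, whereas Gbp7 straddles 0.

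The tissues nevertheless went together from condition to condition. Over the 10 pairs, Pearson's r between spleen and bone marrow levels ran from 0.66 in Iigp1 to 0.96 in Igtp, with a median of 0.86 over the genes. Between genes, r over the 22 arrays was 0.49 to 0.96 for the 36 pairs without Gbp6 (median 0.79) and 0.10 to 0.64 for the 9 pairs with it. These are descriptions, as the points share slides and genotypes. Of 18042 other named genes, those most like the mean of the 10 were Ifi47 (r = 0.97), another IRG, Tgtp2 (0.96), an effector IRG, Gm4951 (0.96), Batf2 (0.96), a transcription factor of interferon-treated macrophages, and Parp14 (0.95), a mono-ADP-ribosyltransferase, over 22 arrays.

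The choice of probe mattered for Gbp6 and Iigp1. The other probe of Gbp6 was -2.35 in WT spleen control and 1.25, 0.70, and -0.08 after MI. In WT bone marrow it was -4.78 in control and then -0.41, -0.77, and -2.08. Its WT arrays after MI lay above all others in spleen, by a small margin (-0.08 against -0.15), and not in bone marrow. On that probe the change in WT at MI 1 week was 3.98 ± 0.40 (adjusted p = 0.00317 over all probes), where the brightest probe had -0.20 ± 0.42. The probes of Gbp6 correlated at r = 0.58 over 22 arrays, but at 0.02 in spleen and 0.17 in bone marrow alone. The dimmer probe also rose in STAT6-KO at MI 4 weeks (2.85 ± 0.40, adjusted p = 0.0203), where the brighter one had 0.37 ± 0.42. Which of them reads Gbp6 alone, and not also its close relative Gbp10, was not tested.

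The other probe of Iigp1 had larger changes in the same direction in WT, while in HDC-KO its changes were negative (-0.76, -0.85, and -0.64 at MI 1, 2, and 4 weeks) and those of the brighter probe near 0 or positive (0.30, 0.04, and 0.04), none of them called. It was -3.06 in WT spleen control and 1.38, 0.55, and 0.43 after MI, and -5.68 in WT bone marrow control and then -0.52, -0.16, and -1.64, and it was not well above background in STAT6-KO bone marrow control. Its change in WT at 1 week was 4.80 ± 0.47 (adjusted p = 0.00317), against 1.71 on the brighter probe, and it was called at 4 weeks too (3.77 ± 0.47, adjusted p = 0.0266). On this probe WT after MI lay above all other arrays in both tissues. The probes of Irgm1 went together (r = 0.97), at 2.26 and 2.23 in WT at 1 week.

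**Figure D5:**
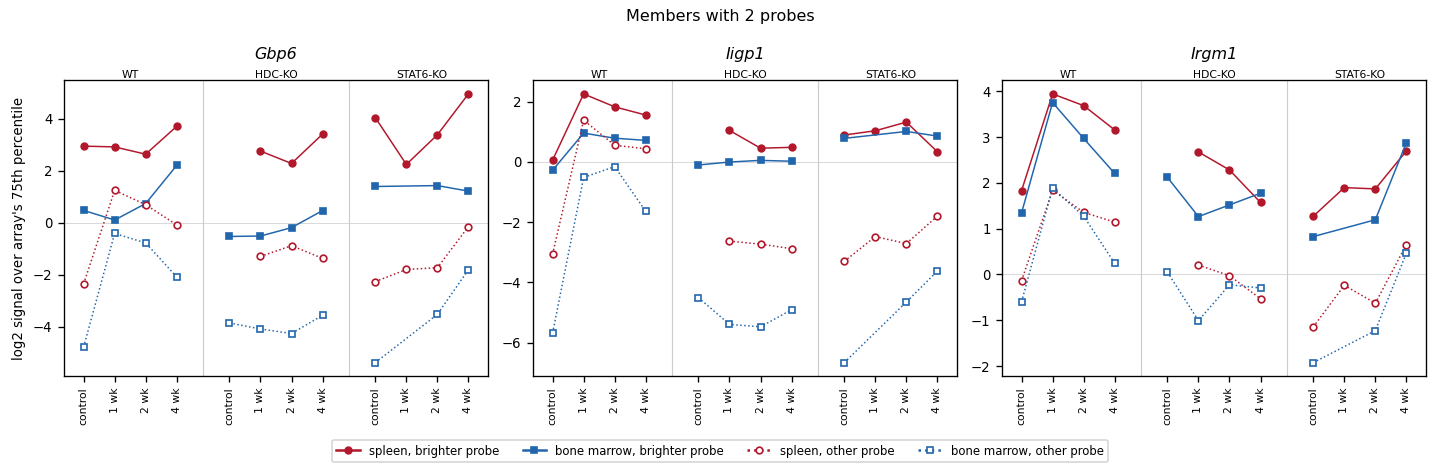
Level (log2 signal over the array's 75th percentile, vertical axis) of both probes of Gbp6, Iigp1, and Irgm1 on the 22 arrays, by genotype and time (horizontal axis). Filled symbols with solid lines are the brighter probe and open symbols with dotted lines the other; circles are spleen and squares bone marrow. The open symbols of Gbp6 and Iigp1 rise steeply in WT at MI 1 week.

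Of 14 further GTPases of these families, 12 were on the array. In WT at MI 1 week 7 of the 12 rose, against 0.808% of all genes, and 0 fell. With any 1 of the 4 arrays left out, some or all of these calls were lost, and fewer of all genes were called too. The 4 with the widest span over the arrays were F830016B08Rik, Gm4951, Tgtp2, and Gbp8, and all 4 rose. Tgtp2 was 2.19 in WT spleen control and 4.30, 4.22, and 4.08 after MI, and 0.24 in WT bone marrow control and then 3.06, 2.97, and 2.24. Its change at 1 week was 2.47 ± 0.29 (adjusted p = 0.00656), and it also rose in STAT6-KO at 4 weeks (2.15 ± 0.29, adjusted p = 0.0196), a call that was lost without the array of doubtful label (2.46, adjusted p = 0.1). Gm4951, a relative of Iigp1, was called in WT at all 3 times, by 3.88, 3.41, and 2.85. Gbp8 changed by 2.15 ± 0.44 and F830016B08Rik by 4.57 ± 0.76 at 1 week. The latter was well above background on 15 of 22 arrays and not in WT bone marrow control, so that its change is a rough value. Gbp10 had 0.57 ± 0.67 and Tgtp1, nearly identical in sequence to Tgtp2, 0.76 ± 0.29, neither called.

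The interferon pathway was read from a list ordered by role, of which 39 of 44 genes were tested. In WT at MI 1 week 15 rose, against 0.808% of all genes, and 0 fell. With any 1 of the 4 arrays left out, some or all of these pathway calls were lost, and fewer of all genes were called too. Ligands (0 of 2), receptors (0 of 4), and kinases (0 of 3) were not called. Ifng, the gene of interferon-gamma itself, was -0.13 in WT spleen control and -1.40 at MI 1 week, and -3.34 and -3.91 in bone marrow, a change of -0.92 ± 0.47 (adjusted p = 0.379). At MI 2 and 4 weeks it was 1.09 and 1.36 in WT spleen and -2.82 and -1.96 in WT bone marrow. Its change was 0.86 and 1.43 at these times (limma, adjusted p = 0.772 and 0.365). The highest Ifng level of the 22 arrays was 2.05, in HDC-KO spleen at MI 4 weeks. There the centred level averaged over the 10 GTPase genes was 0.01. The part of Ifng in the GTPase levels was not tested. In STAT6-KO at MI 4 weeks Ifng had 2.67 ± 0.47 (adjusted p = 0.0566), and 3.17 (adjusted p = 0.13) without the array of doubtful label. Of 9 transcription factors 4 rose, namely Irf7 (2.72), Batf2 (2.12), Stat2 (1.87), and Nlrc5 (1.69), while Irf1, which drives many GBP genes, had 0.98 ± 0.26 (adjusted p = 0.0914).

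Of 4 inhibitors, Usp18, which damps type I interferon signalling, rose by 3.04 ± 0.37 (adjusted p = 0.008). Of 17 targets 10 rose. They included Ifit3 (3.70), Oasl2 (3.56), Ifit1 (3.43), Rsad2 (3.02), and Isg15 (2.24), antiviral genes, and Cxcl10 (2.50), Cd274 (2.11), Tap1 (2.08), Psmb9 (1.68), and Psmb8 (1.24), with roles in T-cell attraction, checkpoint signalling, and antigen presentation. Ido1 (0.26 ± 0.30) and Nos2 (0.58 ± 0.54) were not called. In STAT6-KO at 4 weeks 9 of the 39 rose, 7 of them targets, against 0.346% of all genes, with Ifit3 at 5.03 and Oasl2 at 4.34. Without the array of doubtful label Ifit3 had 5.30 and Oasl2 4.11. With that or any other of the arrays compared left out, some or all of these calls were lost, and fewer of all genes were called too. In HDC-KO at 1 week 0 of 39 were called, against 0.148% of all genes.

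Markers of other cells moved with the WT change at 1 week in part. The erythroid genes had a median of -1.99 and the B-cell genes of -1.45, with 0 of 4 and 0 of 5 called, and 1 of 9 T- and NK-cell genes (Ncr1, -1.29) fell. The neutrophil genes had a median of 0.49 with 0 of 6 called. The summed linear level of the neutrophil genes, in units of the array's 75th percentile, was 317 to 359 in WT spleen after MI and 190 to 340 in the other spleen arrays. In bone marrow it was 367 to 565 against 347 to 664, and the monocyte and macrophage sum was 35.9 to 57.2 against 38.4 to 54.7. In spleen the monocyte and macrophage sum was 106 in WT control and 84.2, 72.1, and 86.4 at MI 1, 2, and 4 weeks. This sum does not stand for every gene of its list. Ccr2, a gene of the list, had its highest level of the 22 arrays in WT spleen at MI 1 week (3.56). In STAT6-KO at MI 4 weeks Ncr1 (2.06) and Gzma (1.73), genes of NK cells, rose, and neither call held without the array of doubtful label (2.38 and 1.78, adjusted p = 0.0507 and 0.16). The part of these cells in the GTPase levels was not tested.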

How the data were processed

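Total RNA of CD11b+ cells was labelled with Cy3 and hybridised by the authors to Agilent Mouse 4x44K arrays, which were read with Feature Extraction 11.0.1.1 per the file headers. The deposited values used are processed spot intensities on a linear scale, after background subtraction by that program and with no normalization between arrays. GCRMA is named in the submitters' processing notes and Genespring in the methods; neither output was used here. Of 24 arrays 22 were complete; the 2 others held 229 and 84 spots, could not be scaled, and were left out. The labels give 1 array per condition, which limits the precision.

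Control spots and 3055 spots marked as outliers were left out, and 0 spots were saturated. Each array's 75th percentile was subtracted after the log2 of its signals was taken. The 39429 probes were named through RefSeq accessions (27234 matched). For a gene with several probes the one with the highest mean was used. Genes well above background on 2 or more arrays of a fit were tested with limma 3.58.1 in R 4.3.3 (lmFit, eBayes), with Benjamini-Hochberg adjustment over all genes and a threshold of 0.05. Genotypes were compared within a tissue with time as a term, tissues as paired differences, and times against control with slide as a block. The pairing of tissues comes from the shared genotype and time in the labels, and not from shared animals as far as the labels say. The scripts were tested on simulated data. Figures were drawn with matplotlib.

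The 10 genes and all lists were chosen with earlier results of these data known. All 10 were described; further GTPases were named by span (4), pathway genes when called or, where none was, by size of difference, and the genes most alike by r (5). Ifng, some genes that were not called, and the cell markers named were chosen with their values in view. The result of 1 cell marker is not reported here. Gbp11, Iigp1b, Il12b, Cxcl11, Mx1, Mx2, Ly6g, Cd68, Ly6c2, and Hbb-b1 were not matched to a probe, and Ifnb1 did not pass the filter. Alternatives were normexp with an offset of 50, quantile normalization, median scaling, a floor, other filters, the mean over probes, each probe alone, other blocks, the methods' t-test, and arrays left out. Added after seeing the data were each probe alone, the arrays after MI alone, leaving out the STAT6-KO spleen MI 4 weeks array or its pair, the difference of changes between genotypes with its alternatives, and list counts without single arrays.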

Additional observations from a re-analysis of the deposited data

Results flagged for a closer look

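The change of Gbp4 from control to MI 1 week differed between genotypes by a test of the difference itself: it was larger in WT than in HDC-KO by 4.46 ± 0.55 (SE, limma, adjusted p = 0.045). Gbp4 rose from 0.66 to 2.63 in WT spleen and from -2.10 to 1.40 in WT bone marrow, and went from -0.84 to -2.64 in HDC-KO bone marrow. HDC-KO spleen had no usable control array. Its adjusted p was 0.0371 to 0.433 with 1 of the arrays compared left out, 0.0739 without STAT6-KO spleen MI 4 weeks, and 0.0598 with normexp. The comparison rests on single arrays of pooled RNA, and genotype and slide cannot be told apart. The part of the Xist signal of the HDC-KO arrays in it was not tested.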

How the results depend on the processing

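For the 16 comparisons, 194 of 222 alternatives kept the number of the 10 genes called within 1.5 times, and 28 did not. HDC-KO against WT in spleen went from 0 to 4 with the arrays after MI only, to 9 with both genotypes fitted alone, and had 0 to 4 with a time point left out in turn. For genotypes, leaving out the control arrays and using the arrays after MI only are the same fit, counted under both names. STAT6-KO against WT in spleen went from 0 to 4 with the arrays after MI only (0 to 4 with a time point left out in turn) and to 2 with the methods' t-test without adjustment. With an array left out in turn, WT at MI 1 week ranged from 0 to 9, and WT at 2 weeks and STAT6-KO at 4 weeks were 0 throughout. With the other probe, WT at 2 weeks had 5, WT at 4 weeks 1, and STAT6-KO at 4 weeks 3. With the mean over probes WT at 4 weeks had 1. STAT6-KO at 4 weeks had 0 with median scaling, and STAT6-KO at 1 week 1, lower, with normexp. Spleen against bone marrow had 4 of 9 calls without the pairing (no replicate block), with slide as a random block (correlation within slides 0.16), and with both forms of the methods' t-test. The cause was not tested.

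Of 421 alternatives for single genes, 333 kept call and direction, 84 lost the call, and 4 reversed, all in Gbp6 in WT at MI 1 week: 1.89 with the mean over probes, 3.98 with the other probe, 0.23 without WT bone marrow MI 1 week, and 0.0014 without WT spleen control. With an array left out in turn it ranged from -0.627 to 0.23. The 9 genes that rose there stayed positive under every alternative run.

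Over all genes the count of calls moved by over 1.5 times under some alternative in every comparison. The lowest and highest were 1 and 603 (506 as reported) in WT at MI 1 week, 0 and 61 (52) at 2 weeks, and 0 and 23 (18) at 4 weeks. In HDC-KO they were 0 and 97 (41), 1 and 69 (15), and 0 and 88 (6), and in STAT6-KO 5 and 13063 (17), 0 and 6 (3), and 0 and 136 (96). Against WT they were 0 and 2610 (745) for HDC-KO in spleen, 3 and 945 (120) in bone marrow, 4 and 965 (519) for STAT6-KO in spleen, and 0 and 1492 (1252) in bone marrow. Between tissues they were 6111 and 19451 (16046), and for its difference between genotypes 0 and 819 (274) and 2 and 167 (96). In WT at MI 1 week normexp gave 187 calls, with 84.0% higher in place of 44.3%, and moved the median of all genes to 0.34; relative to it the 10 genes had 1.93. Median scaling gave 360 with 59.4% higher. In WT at 2 weeks the higher share was 61.5% and 77.8% with median scaling. HDC-KO against WT in spleen had 73.4% of its calls higher, 52.3% with median scaling, and 50.5% with quantile normalization. STAT6-KO against WT in bone marrow had 86.3% higher and 67.9% with median scaling. In STAT6-KO at MI 1 week normexp moved the median of all genes to 0.91. All 10 genes were well above background on every array.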
